A study of Sus scrofa with 56 samples.

Results

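The change from late gestation to lactation was followed in the blood mononuclear cells of 14 sows (Sus scrofa) of the first experimental replicate, R1. A library entered if its label gave replicate 1 and if its sow's ear tag had a library at both stages, which took 28 of the 56 libraries, 14 from gestation day 98 (G98) and 14 from lactation day 11 (L11). The second replicate, R2, gave 12 such pairs (24 libraries), from other sows, and served for comparison. All sows had carried litters before. Of the 14, 7 were labelled as kept in conventional and 7 in enriched housing, and the labels do not say what enrichment was given. By parity, 7 were in their gestation 2 or 3 (low parity, LP) and 7 in their gestation 4 or higher (high parity, HP). By dominance, 6 were dominant, 5 intermediate and 3 subordinate, and no HP sow was subordinate, 5 of 7 HP sows being dominant. The paired R2 sows likewise came from both kinds of housing, both parity groups and every dominance rank. Among them, unlike in R1, subordinate sows outnumbered dominant ones and LP sows outnumbered HP sows. No genotype, breed or drug is given for any group, and 2 of the sows have a further L11 library in R2 that was not used here.

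Blood mononuclear cells are mainly lymphocytes and monocytes, which are usually separated on a density gradient from granulocytes and red cells. Around parturition the sow passes from the endocrine state of pregnancy, through a rise in cortisol at farrowing, to milk production, and circulating leukocytes are known to shift in number and state over this time. Pig blood is also known for its large share of gamma delta T cells. Because whole populations were sequenced, fewer cells of a type and less RNA per cell cannot be told apart in any value below.

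Libraries held 18096887 to 24894799 counts, and 14276 to 14685 genes had a count above 0. The T cell, B cell, monocyte and cytotoxic lists of marker genes were detected in every library. The granulocyte markers MPO and MMP8 were under the filter on low counts, the summed granulocyte list took 0.0155% to 0.0583% of the counts, and the summed stromal list 0.0159% to 0.0313%. Red cell RNA was present and set libraries apart. The summed erythroid list took 0.106% to 10.1% of the counts at G98, and in 4 G98 libraries, all from enriched sows (T83410, T83740, T91384 and T93287 by their tags), it took over 5%. The 10 most abundant genes accordingly took 5.96% to 28.6% of the counts at G98 and 6.44% to 17.7% at L11. One abundant gene ID with no name in the tables used, ENSSSCG00000007978, took 0.146% to 15.3% at G98 and 0.0204% to 8.49% at L11. The G98 and L11 libraries carry 2 separate series of library numbers in their labels, so that the stage cannot be told apart from the library series.

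Between G98 and L11, 5263 of 12250 genes tested changed within sows, which is 43.0% of them (edgeR, adjusted p below 0.05). Of these, 2585 rose (21.1% of genes tested) and 2678 fell (21.9%). Most changes were small, with a median absolute log2 fold change of 0.30 among called genes and -0.0080 as the median over all genes tested. Changes of over 2-fold were called for 154 genes, 75 higher and 79 lower at L11. In 1166 genes (9.52%) all 14 sows moved in the same direction, up in 541 and down in 625, and in 123 genes (1.00%) the G98 and L11 values did not overlap. The smallest adjusted p-values, named here after their values were seen, belonged to FAM53B, ZNF251 and EIF5B. FAM53B ranged from 253 to 308 CPM with a median of 275 at G98 and from 154 to 203 CPM with a median of 180.2 at L11, and it fell in all 14 sows (edgeR log2 fold change -0.61, SE 0.037, adjusted p = 1.98e-08). EIF5B ranged from 91.6 to 121 CPM with a median of 110.9 at G98 and from 155 to 187 CPM with a median of 174 at L11, and this translation initiation factor rose in all 14 (edgeR log2 fold change 0.63, SE 0.04, adjusted p = 1.98e-08). Both genes thus separated the stages with no overlap. The counts in gene lists below are to be read beside the 21.1% and 21.9% of all genes. In R2, 24.9% of all genes rose and 23.4% fell, and a difference between replicates was called for 20.1%.

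The largest falls were in red cell genes. Maturing erythroid cells fill with haemoglobin, make haem and build a specialised membrane skeleton, and enucleated reticulocytes carry the remaining transcripts into blood. Of the 15 tested members of the erythroid list, 13 fell and 0 rose, with a median log2 fold change of -2.45. Of the 10 largest falls among genes with a mean log2 CPM of 1 or more, 7 were members of the list. The beta globin gene HBB (ENSSSCG00000014725, chromosome 9, 4800683 to 4801941) came first among the abundant ones. HBB ranged from 810.2 to 119641 CPM with a median of 13924 at G98 and from 33.5 to 33989 CPM with a median of 339 at L11. It was lower at L11 in 13 of 14 sows and the ranges overlapped widely (edgeR log2 fold change -4.58, SE 0.82, adjusted p = 0.000257). ALAS2, the enzyme that commits erythroid cells to haem synthesis, ranged from 54.5 to 3914 CPM with a median of 516 at G98 and from 14.1 to 1159 CPM with a median of 48.1 at L11 (ENSSSCG00000012347, chromosome X, 47871519 to 47896041; edgeR log2 fold change -3.12, SE 0.54, adjusted p = 0.000191). AHSP, the chaperone of alpha globin (ENSSSCG00000037878, chromosome 3, 17059340 to 17060343), had medians of 52.4 CPM at G98 and 1.06 CPM at L11 (edgeR log2 fold change -4.31, SE 0.67, adjusted p = 6.67e-05). SLC4A1, the anion exchanger of the red cell membrane (ENSSSCG00000017358, chromosome 12, 18957813 to 18975266), fell as well (edgeR log2 fold change -3.80, SE 0.50, adjusted p = 1.38e-05).

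The other large falls were CA1 and CA2, carbonic anhydrases of red cells, the globin gene HBM, the membrane skeleton gene DMTN, the methyltransferase gene INMT and SNCG, a synuclein. Their log2 fold changes ran from -4.65 in CA1 to -3.49 in CA2. CA1 was near the limit of detection at L11, with a median of 0.0418 CPM. Members that did not pass were GATA1, the erythroid transcription factor, at -0.33 (SE 0.20) and the ankyrin gene ANK1 at -0.20 (SE 0.15).

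Summed over the list, red cell RNA fell in 13 of 14 sows, from 3.16% ± 3.73 of the counts at G98 (SD, n = 14, median 1.45%) to 0.417% ± 0.880 at L11 (median 0.0528%). The mean log2 change was -3.91 ± 2.59 (SD, n = 14; exact sign-flip permutation test, two-sided p = 0.000366, adjusted over 12 summed measures 0.00195). The exception was T93204, a conventional sow, in which the share rose from 1.04% to 3.33%. In R2 the share changed by -0.93 ± 1.17 (n = 12), lower in 9 sows, and the R1 change was larger by 2.99 in size (R1 minus R2 -2.99, permutation test with 1e+05 resamples, p = 0.00127).

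The red cell share also differed with housing at G98. In R1 the enriched sows exceeded the conventional ones by 2.91 on the log2 scale (exact permutation test, n = 7 and 7, p = 0.00291, adjusted over 8 such comparisons 0.00777). At L11 the difference was -0.16 (exact permutation p = 0.900), and the change from G98 to L11 was accordingly steeper in the enriched sows, by -3.07 (exact permutation p = 0.0198, adjusted 0.0344). In R2 the G98 difference was -0.78 (exact permutation p = 0.436, n = 7 and 7). That test took all 14 R2 libraries of G98, including those of T408 and T91919, which have no L11 library. The 4 highest G98 libraries all came from enriched sows, and 1 of the 7 conventional sows held over 2% at G98.

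**Figure D1:**
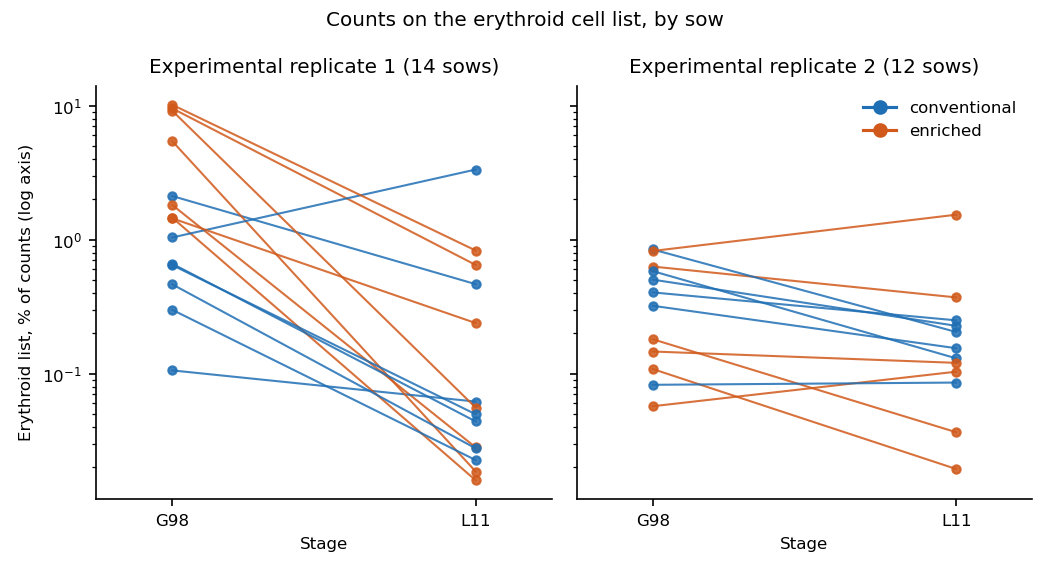
Share of all counts on the erythroid list (percent, log axis) at G98 and L11, with 1 line per sow, coloured by housing, for R1 (14 sows) and R2 (12 sows). In R1, 13 of 14 lines fall and T93204 rises from 1.04% to 3.33%, and the 4 libraries above 5% are all from enriched sows at G98.

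Because red cell RNA moved with stage, the stage change was also fitted with the log2 erythroid share of each library as a covariate. That fit called 1690 of the 12250 genes, 761 higher and 929 lower at L11. Of these, 1534 were among the 5263, and the fit gave the same sign for 5136 of the 5263. The log2 fold change stayed within 1.5 times its value for 3012 of them, was smaller by more in 1628, the reversed ones included, and was larger by more in 623. Leaving out T93204 and the 4 sows with over 5% left 9 sows and 3874 called genes, 3667 of them among the 5263, with the same sign for 5237. The erythroid counts with each alternative were 0 up and 13 down in those 9 sows and 0 up and 1 down with the covariate. The covariate is the summed list itself, mostly HBB (mean 3.01% of the counts at G98, against 3.16% for the list). The loss of the list's own calls with it was thus largely fixed in advance. Genes no longer called with the covariate are named after each group below, with the log2 fold change they then had. The share fell in 13 of 14 sows, so covariate and stage overlap, and a call can be lost without a smaller change. Over the 5263 genes the log2 fold change with the covariate had a median ratio of 0.914 to that without. List counts with the covariate are to be read beside the 761 and 929 of all 12250 genes.

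Genes of the inflammatory and immediate early response gave the largest rises. NF-kB is a transcription factor held in the cytoplasm by inhibitors that it induces itself, and its targets include chemokines that call in neutrophils. Of 16 tested genes of the inflammatory cytokine and NF-kB list, 8 rose and 2 fell, with a median of 0.56, and the covariate fit gave 8 and 1. The neutrophil chemokine CXCL2 (ENSSSCG00000008959, chromosome 8, 70157253 to 70159145) changed most. CXCL2 ranged from 2.16 to 43.4 CPM with a median of 6.37 at G98 and from 15.3 to 126 CPM with a median of 38.1 at L11. It rose in all 14 sows, with some overlap of the highest G98 and lowest L11 values (edgeR log2 fold change 2.18, SE 0.24, adjusted p = 2.04e-06). NFKBIA, the inhibitor that returns NF-kB to the cytoplasm, ranged from 68.0 to 328 CPM with a median of 78.7 at G98 and from 147 to 639.5 CPM with a median of 238 at L11 (ENSSSCG00000001952, chromosome 7, 64508119 to 64510754). It too rose in 14 of 14 (edgeR log2 fold change 1.32, SE 0.14, adjusted p = 1.46e-06).

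IL10, an anti-inflammatory cytokine, ranged from 1.53 to 4.78 CPM with a median of 2.95 at G98 and from 4.20 to 11.0 CPM with a median of 7.01 at L11 (ENSSSCG00000015652, chromosome 9, 67400727 to 67405941), and again every sow had more at L11 (edgeR log2 fold change 1.27, SE 0.14, adjusted p = 2.98e-06). CXCL8, a second neutrophil chemokine (ENSSSCG00000008953, chromosome 8, 69932646 to 69935861), was less abundant, with medians of 0.742 and 2.99 CPM (edgeR log2 fold change 1.58, SE 0.25, adjusted p = 8.31e-05), and with the covariate its value was 1.16 (adjusted p = 0.103). The feedback inhibitors TNFAIP3 (0.78, SE 0.11) and NFKBIZ (0.59, SE 0.10) rose, as did the chemokines CCL4 (0.84, SE 0.17) and CCL3L1 (0.63, SE 0.12). The subunits moved the other way, NFKB1 at -0.15 (SE 0.042) and RELB at -0.14 (SE 0.051), both called lower. In R2 the same list had 7 members higher and 1 lower, and 2 of its 16 differed between replicates. CXCL8 (1.16) and NFKB1 (-0.062) were no longer called with the covariate.

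Of 17 immediate early genes, which cells transcribe within minutes of a stimulus, 8 rose and 2 fell. ATF3, a stress-induced transcription factor, ranged from 13.4 to 69.9 CPM with a median of 23.1 at G98 and from 38.8 to 99.2 CPM with a median of 60.3 at L11 (ENSSSCG00000015595, chromosome 9, 130772259 to 130829678), and it rose in 14 of 14 sows (edgeR log2 fold change 1.35, SE 0.13, adjusted p = 5.5e-07). IER3, an NF-kB target and survival gene, rose by 1.62 (SE 0.29) from a median of 1.09 CPM. FOSB (0.98, SE 0.23), NR4A2 (0.51, SE 0.12), KLF4 (0.56, SE 0.11) and ZFP36 (0.43, SE 0.093), which promotes decay of cytokine mRNA, were also higher. EGR1 (-0.58, SE 0.15) and IER2 (-0.47, SE 0.078) fell, so the list did not move as one. NR4A2 (0.25), ZFP36 (0.48), EGR1 (-0.52) and IER2 (-0.43) were no longer called with the covariate.

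The largest rises also included 4 genes of other kinds. MMP9, a gelatinase of neutrophils and monocytes, ranged from 1.77 to 21.9 CPM with a median of 4.73 at G98 and from 3.56 to 147 CPM with a median of 21.0 at L11 (ENSSSCG00000007436, chromosome 17, 48179690 to 48186782). It was higher at L11 in 13 of 14 sows with broad overlap (edgeR log2 fold change 1.90, SE 0.31, adjusted p = 0.000119; 1.26 (adjusted p = 0.119) with the covariate). CRHBP, the binding protein for corticotropin-releasing hormone, ranged from 2.07 to 7.90 CPM with a median of 3.85 at G98 and from 6.35 to 41.0 CPM with a median of 10.6 at L11 (ENSSSCG00000014093, chromosome 2, 85814399 to 85830598), higher in all 14 sows (edgeR log2 fold change 1.65, SE 0.16, adjusted p = 8.19e-07). SNAI1, a zinc finger repressor, had medians of 7.05 and 20.1 CPM (edgeR log2 fold change 1.56, SE 0.16, adjusted p = 1.14e-06). TRIB1, a pseudokinase that targets C/EBP factors for degradation, had medians of 50.4 and 134 CPM (edgeR log2 fold change 1.45, SE 0.15, adjusted p = 1.05e-06). Both rose in every sow. MMP9 (1.26) was no longer called with the covariate.

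**Figure D2:**
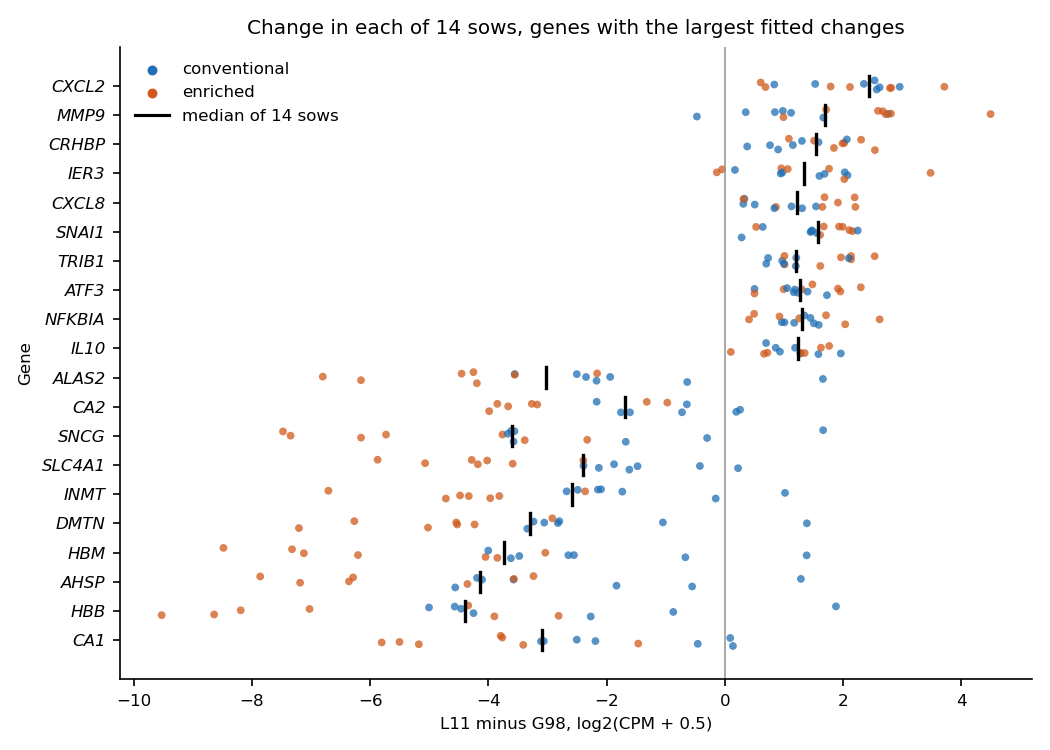
Change from G98 to L11 in each of the 14 R1 sows, as log2(CPM + 0.5), for the 10 largest rises and 10 largest falls, coloured by housing, with the median as a bar. For the red cell genes the enriched sows lie mostly to the left of the conventional ones, while CXCL2, CRHBP, SNAI1, TRIB1, ATF3, NFKBIA, CXCL8 and IL10 lie to the right of 0 in all 14 sows.

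Glucocorticoid-responsive genes rose. Cortisol binds its receptor in leukocytes and induces anti-inflammatory genes, and it also entrains clock genes. Of 10 tested members 7 rose and 1 fell, with a median of 0.47 (5 and 0 with the covariate, median 0.54). SGK1, a kinase induced by the receptor, ranged from 128 to 413 CPM with a median of 225 at G98 and from 318 to 773 CPM with a median of 459 at L11 (ENSSSCG00000021443, chromosome 1, 29625786 to 29753619; edgeR log2 fold change 0.99, SE 0.13, adjusted p = 1.4e-05). DUSP1, a phosphatase that shuts down MAP kinases, ranged from 191 to 537 CPM with a median of 327 at G98 and from 408.3 to 761 CPM with a median of 573 at L11 (ENSSSCG00000016991, chromosome 16, 51457924 to 51461095; edgeR log2 fold change 0.79, SE 0.083, adjusted p = 1.56e-06). Both rose in all 14 sows with partial overlap of the stages. ANXA1 (0.50, SE 0.069), DDIT4 (0.98, SE 0.15), TXNIP (0.54, SE 0.091), KLF9 (0.35, SE 0.079) and PER1 (0.44, SE 0.094) were higher, IRS2 (-0.50, SE 0.13) was lower, and FKBP5, a classical receptor target, was at -0.024 (SE 0.14) and not called. DUSP1 and TXNIP rose more in R1 than in R2, where their log2 changes were -0.064 and -0.25 (R1 minus R2 0.87, SE 0.16, edgeR adjusted p = 0.000309, and for TXNIP R1 minus R2 0.80, SE 0.16, edgeR adjusted p = 0.000991). ANXA1, PER1 and IRS2 differed in the other direction. KLF9 (0.39), PER1 (0.29) and IRS2 (-0.45) were no longer called with the covariate.

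Of 17 circadian clock genes, 3 rose and 6 fell in R1. The clock is a loop in which BMAL1 and CLOCK drive their own repressors, with output through the PAR bZIP factors. NFIL3, a repressor of that output, ranged from 34.9 to 146 CPM with a median of 70.0 at G98 and from 106 to 229.9 CPM with a median of 156 at L11 (ENSSSCG00000009592, chromosome 14, 2588887 to 2603774), and it rose in all 14 sows (edgeR log2 fold change 1.15, SE 0.12, adjusted p = 1.07e-06). BHLHE40 (0.69, SE 0.07) and PER1 rose beside it, while BHLHE41 (-0.61, SE 0.085), TEF (-0.64, SE 0.13), RORA (-0.47, SE 0.079), CRY2, HLF and NR1D2 fell. BMAL1 was at -0.0067 (SE 0.047) and NR1D1 at -0.0032 (SE 0.075), neither called. The sources used here do not give the hour of blood sampling. In R2, 5 rose and 10 fell, beside 24.9% and 23.4% of all genes. Of the 17, 7 differed between replicates, beside 20.1% of all genes. PER1 (0.29), BHLHE41 (-0.43), RORA (-0.32), HLF (-0.26) and NR1D2 (-0.12) were no longer called with the covariate.

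T cell genes fell, in particular those of naive and central memory cells, which recirculate through lymph nodes. Of 12 T cell markers 7 fell and 1 rose, and of 11 naive and central memory genes 9 fell and 0 rose (median -0.28; 7 fell with the covariate). BCL11B, the factor that keeps T cell identity (ENSSSCG00000002507, chromosome 7, 120205008 to 120295737), separated the stages. BCL11B ranged from 52.2 to 98.5 CPM with a median of 63.7 at G98 and from 33.6 to 50.02 CPM with a median of 41.3 at L11. Every L11 value lay below every G98 value (edgeR log2 fold change -0.67, SE 0.064, adjusted p = 6.65e-07). SATB1, a chromatin organiser of lymphocytes, ranged from 110.0 to 157 CPM with a median of 135 at G98 and from 79.3 to 122 CPM with a median of 101 at L11 (ENSSSCG00000011201, chromosome 13, 5315985 to 5410686; edgeR log2 fold change -0.40, SE 0.039, adjusted p = 6.83e-07). CCR7, the lymph node homing receptor, ranged from 167 to 357 CPM with a median of 226 at G98 and from 114 to 229 CPM with a median of 158 at L11 (ENSSSCG00000017466, chromosome 12, 21857286 to 21869211; edgeR log2 fold change -0.47, SE 0.05, adjusted p = 1.5e-06). Both fell in all 14 sows. KLF2 (-0.49, SE 0.054), which drives expression of homing receptors, S1PR1 (-0.32, SE 0.035), TCF7 (-0.28, SE 0.044), IL7R (-0.29, SE 0.056), BACH2, FOXO1 and LEF1 fell too. IL7R (-0.30) and BACH2 (-0.21) were no longer called with the covariate.

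Among T cell markers CD3D fell (-0.34, SE 0.046) and CD3E rose (0.25, SE 0.047), and CD4 was at 0.04 (SE 0.055). The summed T cell list did not change detectably as a share of counts, at 0.311% ± 0.0484 at G98 and 0.314% ± 0.0301 at L11 (SD, n = 14; exact sign-flip permutation p = 0.663). Such summed shares are of all counts, red cell RNA included, and are not scaled as the fold changes are. A fall in red cell RNA alone raises the share of every other list, and its part in these values was not tested. The same limit holds for the cytotoxic, monocyte, granulocyte, mitochondrial and ribosomal shares below. Of 12 regulatory and activated T cell genes 2 rose and 2 fell, among them CCR4 down (-0.70, SE 0.10) and CTLA4 up (0.59, SE 0.21), with FOXP3 at -0.10 (SE 0.054) not called. Of 7 gamma delta T cell genes SOX13, in mice a factor of that lineage, was the 1 called member, lower at L11 (-0.33, SE 0.046). CD3E (0.17), CCR4 (-0.22), CTLA4 (0.061) and SOX13 (-0.26) were no longer called with the covariate.

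Homing receptors fell in 7 of 14 and rose in 2. S1PR4, a sphingosine phosphate receptor of lymphocytes (ENSSSCG00000013474, chromosome 2, 75394737 to 75399914), separated the stages. S1PR4 ranged from 30.2 to 54.4 CPM with a median of 42.5 at G98 and from 14.4 to 25.8 CPM with a median of 20.5 at L11. The lowest G98 library held more than the highest L11 library (edgeR log2 fold change -1.13, SE 0.084, adjusted p = 8.37e-08; -1.09 (adjusted p = 0.00105) with the covariate), and the R2 change was -1.07. The chemokine receptors CCR6 (-0.68, SE 0.077), CXCR3 (-0.45, SE 0.087), CXCR5 (-0.42, SE 0.11) and CCR9 (-0.31, SE 0.095) and the integrin genes ITGA4 and ITGAE fell. CXCR4, the receptor that holds cells in marrow (0.65, SE 0.12), and S1PR5, a receptor of NK cells (0.51, SE 0.074), rose. S1PR5 was at -0.24 in R2 and differed between replicates (R1 minus R2 0.77, SE 0.17, edgeR adjusted p = 0.0016). KCNA3, a potassium channel of T cells and no member of a list, was named after its values were seen. KCNA3 ranged from 40.03 to 55.1 CPM with a median of 45.7 at G98 and from 15.0 to 36.7 CPM with a median of 20.8 at L11, again with no overlap (edgeR log2 fold change -1.11, SE 0.079, adjusted p = 6.75e-08). CXCR3 (-0.46), CXCR5 (-0.20), CCR9 (-0.13), ITGA4 (-0.047), ITGAE (-0.089), CXCR4 (0.59) and S1PR5 (0.42) were no longer called with the covariate.

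Cytotoxic and NK cell genes rose in 10 of 19 and fell in 1, and their summed share was higher at L11 in 12 of 14 sows (0.237% ± 0.0479 to 0.329% ± 0.0856, mean log2 change 0.46 ± 0.32, n = 14, exact sign-flip permutation p = 0.000488, adjusted 0.00195). GNLY is a pore-forming granule protein (ENSSSCG00000008228, chromosome 3, 59067327 to 59072034). GNLY ranged from 249.7 to 771 CPM with a median of 475 at G98 and from 405 to 1838 CPM with a median of 824 at L11. It rose in all 14 sows, with overlap (edgeR log2 fold change 1.01, SE 0.077, adjusted p = 8.48e-08; 0.84 (adjusted p = 0.00164) with the covariate). XCL1 (0.67, SE 0.075), NCR1 (0.56, SE 0.092), the receptor that marks NK cells, IFNG (1.07, SE 0.27) and KLRK1 (0.52, SE 0.11) rose, while EOMES fell (-0.28, SE 0.081). PRF1, the perforin gene, was at -0.031 (SE 0.072), CD8A at 0.035 (SE 0.048), and 2 gene IDs share the symbol GZMA, of which 1 was called higher, and the counts of such copies are uncertain. The count was 3 up and 0 down with the covariate, 5 and 0 without sow terms and 7 and 1 in the 9 sows. NCR1 (0.17), KLRK1 (0.63) and EOMES (-0.32) were no longer called with the covariate.

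Of 15 monocyte genes 7 rose and 0 fell, and the summed list went from 0.262% ± 0.0643 to 0.309% ± 0.0407 of counts (n = 14, higher in 9 sows, exact sign-flip permutation p = 0.00854, adjusted 0.0240). S100A8, a calcium-binding alarmin (1.14, SE 0.22), its relative S100A12 (0.77, SE 0.15), CEBPB (0.58, SE 0.13), CD14 (0.44, SE 0.12), the endotoxin co-receptor, and SPI1 (0.32, SE 0.063) were called, whereas CSF1R (-0.079, SE 0.08) and CD163 (-0.20, SE 0.12) were not. With the covariate 2 members rose, and S100A8 was at 0.37 (adjusted p = 0.512). Of 8 dendritic cell genes 4 rose and 2 fell, the rises being FCER1A (0.63, SE 0.12), FLT3 (0.48, SE 0.10), IRF8 (0.38, SE 0.073) and TCF4 (0.32, SE 0.081). Of 8 granulocyte genes 4 rose (MMP9, LTF, RETN and CSF3R) and ARG1 fell (-2.24, SE 0.37), with 0 called with the covariate. Their summed share did not differ detectably (0.0357% to 0.0365%, exact sign-flip permutation p = 0.421, n = 14), and MPO and MMP8 stayed under the filter. S100A8 (0.37), S100A12 (0.45), CD14 (0.11), IRF8 (0.23), TCF4 (0.32), MMP9 (1.26), LTF (0.042), RETN (0.48), CSF3R (0.21) and ARG1 (-0.45) were no longer called with the covariate.

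Of 11 B cell genes 2 rose and 2 fell, PAX5 being lowest (-0.56, SE 0.092), and MS4A1 (-0.24, SE 0.12) was not called. Of 9 plasma cell genes 0 rose and 1 fell, POU2AF1 (-0.28, SE 0.051). In R2, 8 of these 9 rose, and 7 differed between replicates, such as JCHAIN, the joining chain of secreted antibody, at 0.22 in R1 and 1.02 in R2 (R1 minus R2 -0.79, SE 0.22, edgeR adjusted p = 0.0118). Of 12 platelet genes 3 fell and 0 rose, led by GP5 (-1.70, SE 0.31), and this 25% is near the 21.9% of all genes that fell. Without T93204 and the 4 sows with over 5% red cell RNA 11 fell, as many as without T93287 alone. Over all genes, 2017 fell in the fit without those 5 sows. ITGB3, one of the 3, lost its call with limma voom (adjusted p = 0.0619) and in 10 of the 14 fits that left out 1 sow. Of 8 stromal and endothelial genes 0 were called in R1 (2 lower without T93287), while 2 rose in R2, where the median was 1.91. PAX5 (-0.41), GP5 (-1.13) and ITGB3 (-0.30) were no longer called with the covariate.

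Genes of sterol and fatty acid synthesis fell. SREBF2 encodes the factor that turns on cholesterol uptake and synthesis when sterols are low, and SREBF1 its relative for fatty acids. Of 25 tested members 14 fell and 1 rose, with a median of -0.21 against -0.0080 over all genes. SREBF2 ranged from 259 to 378 CPM with a median of 302 at G98 and from 165 to 246 CPM with a median of 215 at L11, with no overlap (ENSSSCG00000026092, chromosome 5, 6719484 to 6784724; edgeR log2 fold change -0.49, SE 0.042, adjusted p = 2.88e-07). FASN, the fatty acid synthase, ranged from 146 to 199 CPM with a median of 169.6 at G98 and from 93.6 to 152 CPM with a median of 109 at L11 (ENSSSCG00000029944, chromosome 12, 922405 to 937560; edgeR log2 fold change -0.60, SE 0.053, adjusted p = 3.28e-07). It fell in all 14 sows but overlapped between stages. SREBF1 (-0.15) was no longer called with the covariate.

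Of the enzymes of sterol synthesis SQLE (-0.49, SE 0.095) and MVK (-0.39, SE 0.093) fell as well, as did the desaturase gene SCD (-0.62, SE 0.11) and ACACA (-0.39, SE 0.09). CPT1A, which carries fatty acids into mitochondria for oxidation, was the 1 member to rise (0.75, SE 0.22). INSIG1, a brake on sterol synthesis, was at -0.027 (SE 0.11). With the covariate 0 rose and 3 fell, SREBF2 (-0.54) and FASN (-0.49) among them. In R2, 5 rose and 3 fell (median 0.014), and 8 members differed between replicates, 7 of them lower in R1, such as INSIG1 (1.27 in R2; R1 minus R2 -1.28, SE 0.20, edgeR adjusted p = 8.4e-05). SQLE (-0.17), MVK (-0.50), SCD (-0.30), ACACA (-0.047) and CPT1A (0.26) were no longer called with the covariate.

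Among genes of mitochondrial respiration, ribosomes and the proteasome, more members were called higher than lower, and most of the ribosomal and mitochondrially encoded ones were not called. The respiratory chain joins subunits from the nuclear and the mitochondrial genome. Of 58 nuclear oxidative phosphorylation genes 28 rose and 2 fell in R1 (median 0.15), and 8 rose in all 14 sows. NDUFB1, a subunit of complex I (ENSSSCG00000002449, chromosome 7, 113652772 to 113659937), rose most. NDUFB1 ranged from 5.51 to 9.45 CPM with a median of 7.33 at G98 and from 11.9 to 21.1 CPM with a median of 14.3 at L11, and the stages did not overlap (edgeR log2 fold change 0.97, SE 0.084, adjusted p = 3.01e-07). SDHB, the iron-sulphur subunit of complex II, also separated the stages, at 57.8 to 74.6 CPM and then 75.3 to 99.0 CPM (edgeR log2 fold change 0.34, SE 0.037, adjusted p = 2.11e-06). CYCS, cytochrome c, rose in all 14 (0.51, SE 0.05). Of 12 mitochondrially encoded genes 4 rose and 0 fell, ND3 most (0.77, SE 0.11), and their summed share went from 2.42% ± 0.658 to 3.16% ± 0.700 of the counts (n = 14, higher in 11, exact sign-flip permutation p = 0.0100, adjusted 0.0240).

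Of 46 ribosomal protein genes 13 rose and 4 fell (median 0.089), that is 28.3% and 8.70% beside 21.1% and 21.9% of all genes tested, RPL36A most (0.52, SE 0.07), and their summed share did not change detectably (exact sign-flip permutation p = 0.0707, n = 14). Of 30 proteasome genes 13 rose and 2 fell (median 0.095), with PSMA4, a subunit of the core, free of overlap at 48.0 to 67.2 and then 70.5 to 96.2 CPM (edgeR log2 fold change 0.41, SE 0.042, adjusted p = 1.13e-06). With the covariate the rises numbered 13 of 58, 1 of 46 and 4 of 30 for the 3 nuclear lists, beside 761 of all 12250 genes in that fit. Without T93220, 21 of the 46 ribosomal protein genes rose, and without T93287, 7 fell. Without T91384, 8 of the 12 genes of the mitochondrial genome rose.

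In R2 the 3 lists rose far more widely. There 53 of 58 oxidative phosphorylation genes rose (median 0.64), 42 of 46 ribosomal protein genes (median 0.62) and 26 of 30 proteasome genes (median 0.40), against 48.3% of all 12292 genes called in R2, 24.9% higher and 23.4% lower. The difference between replicates was itself called for 41, 37 and 20 members, all lower in R1, where 20.1% of 12729 genes were called in either direction, 9.38% higher in R1 and 10.8% lower. NDUFB9 of complex I was at 0.22 in R1 and 1.13 in R2 (R1 minus R2 -0.90, SE 0.14, edgeR adjusted p = 6.75e-05). RPS16 was at 0.091 and 1.41 (R1 minus R2 -1.30, SE 0.18, edgeR adjusted p = 2.11e-05), and PSMA2 at 0.066 and 0.90 (R1 minus R2 -0.82, SE 0.11, edgeR adjusted p = 1.01e-05). NDUFB9 (0.17) was no longer called with the covariate.

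**Figure D3:**
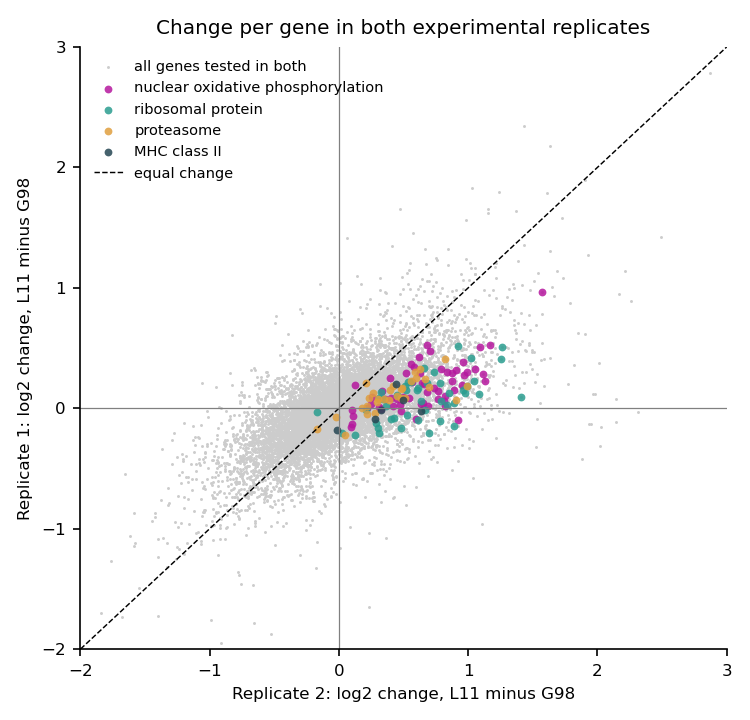
Fitted log2 change from G98 to L11 of each gene in R1 (vertical) against R2 (horizontal), with 4 gene lists coloured and equal change as a dashed line; genes beyond -2 or 3 are not drawn. The members of all 4 lists lie mostly below the line, with R1 medians of 0.15, 0.089, 0.095 and -0.019 and R2 medians of 0.64, 0.62, 0.40 and 0.38 for oxidative phosphorylation, ribosomal protein, proteasome and MHC class II genes.

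MHC class II genes, which present antigen to helper T cells, also differed between replicates. Of 6 tested, SLA-DMA rose in R1 (0.20, SE 0.048) and the regulator CIITA was called lower (-0.18, SE 0.07, adjusted p = 0.0491), a call that ended without the filter on low counts (adjusted p = 0.0623) and in 10 of 14 fits with 1 sow left out. In R2, 5 of the 6 rose, and 5 differed between replicates, among them SLA-DQB1 at -0.022 in R1 and 0.63 in R2 (R1 minus R2 -0.64, SE 0.12, edgeR adjusted p = 0.000344) and CD74, the invariant chain, at -0.093 and 0.28 (R1 minus R2 -0.36, SE 0.091, edgeR adjusted p = 0.00588). Of 29 interferon-stimulated genes 2 rose and 4 fell in R1 (median -0.11), while 6 rose and 0 fell in R2. The antiviral genes MX2 (-0.70, SE 0.18) and OASL (-0.64, SE 0.21) fell and IFI44L rose (0.38, SE 0.079). ISG15, a ubiquitin-like modifier, was at -0.26 in R1 and 1.01 in R2 (R1 minus R2 -1.25, SE 0.27, edgeR adjusted p = 0.00147). SLA-DMA (0.24), CIITA (-0.032), MX2 (-0.87) and IFI44L (0.31) were no longer called with the covariate.

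Of 14 heat shock and chaperone genes 5 rose, 2 fell and 7 were not called, BAG3, a co-chaperone of HSP70, most and in all 14 sows (0.65, SE 0.062), with HSPE1 (0.45, SE 0.061) and HSPB1 (0.39, SE 0.055). Of 13 endoplasmic reticulum stress genes 5 rose, 0 fell and 8 were not called, HSP90B1 (0.29, SE 0.041) and HSPA5 (0.26, SE 0.049) in all 14 sows. In R2, 10 of those 13 rose, and 7 differed, such as MANF at 0.19 in R1 and 0.87 in R2 (R1 minus R2 -0.66, SE 0.11, edgeR adjusted p = 0.000108). With the covariate 0 of them rose and 2 fell in R1, and without T82133, T91403, T93157 or T93220, 3 rose. HSP90B1 (0.18), HSPA5 (0.14) and MANF (0.084) were no longer called with the covariate.

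The next lists had shares of called members to be read beside the 21.1% of all genes that rose and the 21.9% that fell. Of 20 glycolysis and hypoxia genes 6 rose and 5 fell (30% and 25%). VEGFA (0.63, SE 0.11) led the rises and PDK1 (-0.27, SE 0.06), a kinase that inhibits pyruvate dehydrogenase, the falls. Of 7 complement genes 4 rose, including properdin, CFP (0.33, SE 0.074), and C3 (0.27, SE 0.077), and in the 9 sows 1 did. Of 22 cell cycle genes 2 rose and 6 fell (9.09% and 27.3%), among them the replication licensing genes MCM2 (-0.29, SE 0.065), MCM3 (-0.28, SE 0.059) and MCM6 (-0.20, SE 0.042). Of 10 hormone receptor genes 2 rose and 4 fell, with IGF1R, the receptor for insulin-like growth factor 1, lowest and lower in all 14 sows (-0.53, SE 0.071). The glucocorticoid receptor NR3C1 was at 0.037 (SE 0.063), and the receptors for progesterone, prolactin and oxytocin were under the filter on low counts. PDK1 (-0.29), C3 (0.041), MCM6 (-0.084) and IGF1R (-0.38) were no longer called with the covariate.

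Of 10 iron and haem handling genes 3 rose and 4 fell. SLC11A1, a metal transporter of phagosomes, rose in 14 of 14 (0.61, SE 0.092), and HAMP, the iron hormone hepcidin, rose from a median of 0.216 to 0.646 CPM (edgeR log2 fold change 1.55, SE 0.34, adjusted p = 0.00138). NCOA4, the receptor that sends ferritin for degradation, fell in all 14 sows (-0.74, SE 0.14), as did BLVRB on average (-1.07, SE 0.30), and with the covariate they were at -0.18 (adjusted p = 0.579) and -0.0052 (adjusted p = 0.996). NCOA4 and BLVRB are also abundant in red cells. SLC11A1 (0.48), HAMP (0.60), NCOA4 (-0.18) and BLVRB (-0.0052) were no longer called with the covariate.

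**Figure D4:**
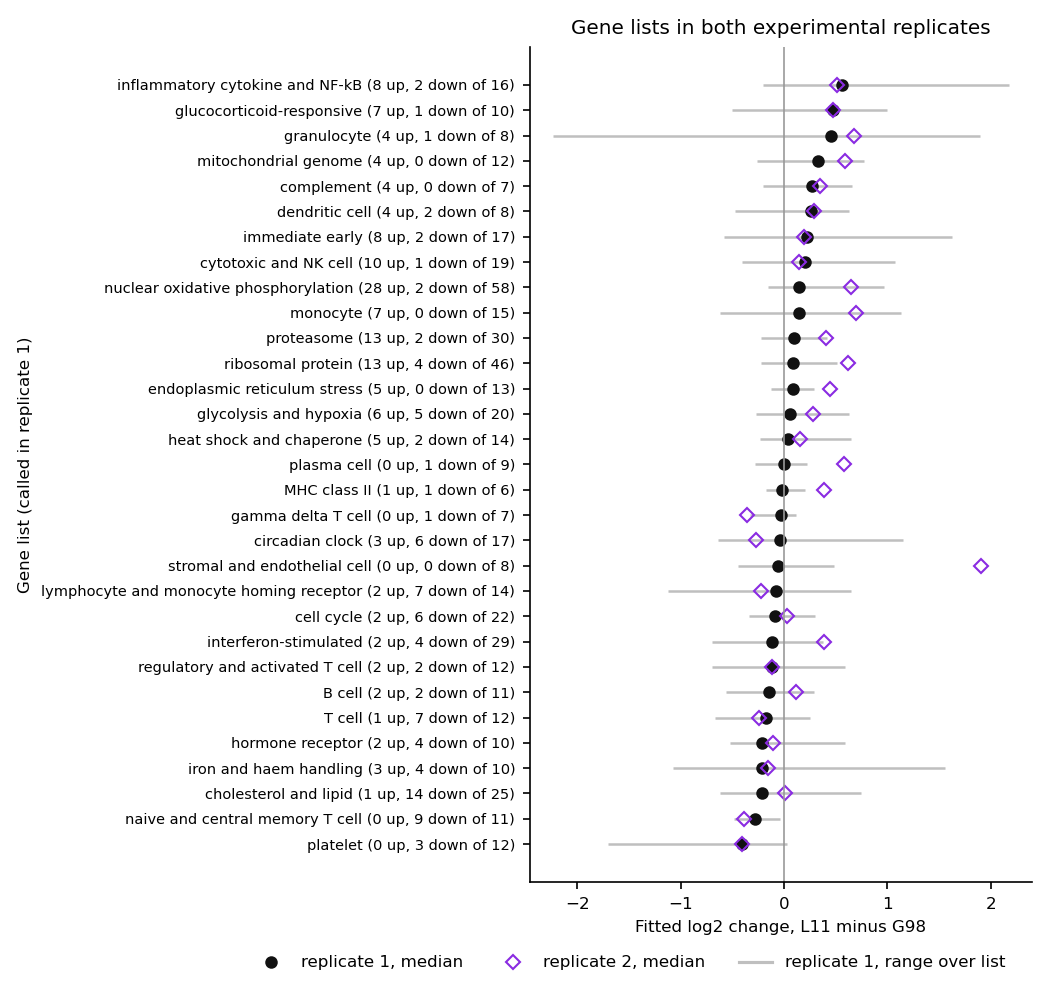
Fitted log2 change from G98 to L11 for 31 gene lists, without the erythroid one, as the median over tested members in R1 (filled) and R2 (open), with the R1 range as a grey line and the called members beside each name. The inflammatory (median 0.56) and glucocorticoid-responsive (0.47) lists lie highest in R1 and the platelet (-0.41) and naive T cell (-0.28) lists lowest, and the R2 medians of the nuclear oxidative phosphorylation, ribosomal protein and plasma cell lists lie to the right of the R1 medians.

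Over all genes, the replicates shared much of the change. Of 12116 genes tested in both, 5219 were called in R1, and 86.4% of these had the same sign in R2, against 74.0% of all genes. Called in both were 3302 genes, 3162 with the same sign and 140 with opposite signs. The difference between replicates was called for 2564 of 12729 genes, with 1194 higher and 1370 lower in R1. Of the 8 genes furthest below R2, 5 were members of the erythroid list and 7 were among the strong falls in R1 (HBB, AHSP, HBM, SNCG, DMTN, REEP1 and ALAS2), from -3.75 (SE 0.92) in HBB to -2.37 (SE 0.64) in ALAS2.

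The eighth was NR4A3, a nuclear receptor of the immediate early class. NR4A3 ranged from 0.668 to 2.30 CPM with a median of 1.29 at G98 and from 0.301 to 1.61 CPM with a median of 1.11 at L11, and 4 of 14 R1 sows rose (edgeR log2 fold change -0.31, SE 0.17, adjusted p = 0.148). In R2 all 12 sows rose, by 2.02 (R1 minus R2 -2.31, SE 0.38, edgeR adjusted p = 0.000112). Among the 8 genes furthest above R2, CRHBP rose in both and more in R1 (R1 minus R2 1.19, SE 0.25, edgeR adjusted p = 0.00133). SEMA6D, a semaphorin, ranged from 4.65 to 15.7 CPM with a median of 7.58 at G98 and from 5.83 to 25.4 CPM with a median of 15.9 at L11 (edgeR log2 fold change 0.85, SE 0.093, adjusted p = 2.29e-06), while R2 stood at -0.15 (R1 minus R2 1.01, SE 0.21, edgeR adjusted p = 0.000886). ZNF683, known in mice as Hobit from tissue-resident lymphocytes, ranged from 42.8 to 110.7 CPM with a median of 70.5 at G98 and from 40.9 to 127 CPM with a median of 91.9 at L11 (edgeR log2 fold change 0.22, SE 0.065, adjusted p = 0.0114), and all 12 R2 sows fell (log2 change -0.75; R1 minus R2 0.99, SE 0.14, edgeR adjusted p = 3.14e-05). The others were EXPH5 (1.22, SE 0.28), PRRT2 (1.15, SE 0.23), ZNF891 (1.10, SE 0.33), ZSWIM3 (1.08, SE 0.22) and EPHB4 (1.01, SE 0.22). Red cell RNA differed between the replicates as given above, and with its share as a covariate 1342 genes differed.

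Whether the change within R1 depended on housing was tested as the interaction of stage and housing. It was called for 65 of 12250 genes (0.531%), 16 with a higher and 49 with a lower change in enriched sows, and the smallest adjusted p was 0.0343. Of the 15 erythroid genes 3 were called, namely TRIM58 (-2.34), FECH (-1.58), the last enzyme of haem synthesis, and EPB42 (-2.57). Other called genes were AQP1 (-3.40), ARG1 (-2.25), BLVRB (-1.86) and NCOA4 (-0.87), named after their values were seen. With the erythroid share as a covariate 0 genes were called. In that fit all 60 called genes with a symbol kept their sign, and 56 stayed within 1.5 times their difference (median ratio 0.911). The share itself differed with housing at G98, and its part in these differences was not tested. The 4 that shrank by more were EPB42, REEP1, ARG1 and SOX6, named after their values were seen. With stage by parity also in the fit 0 genes were called.

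The 5 genes named next had the smallest p for this interaction, so wide separation of the housing groups follows from how they were picked. The share of all genes with separate groups was not counted. Changes of CCR4, a chemokine receptor of helper and regulatory T cells (ENSSSCG00000034660, chromosome 13, 18860596 to 18865987), ran from -0.55 to -0.14 in the conventional sows and from -1.25 to -0.64 in the enriched sows, with no overlap (enriched minus conventional -0.73, SE 0.12, edgeR adjusted p = 0.0343). Mean levels were 15.1 CPM before farrowing and then 11.9 CPM at L11 for conventional sows, and 19.7 and 9.49 CPM for enriched sows. ATP5IF1, the inhibitor of ATP synthase, changed from -0.72 to 1.45 in the conventional sows and from -2.96 to -1.01 in the enriched sows (enriched minus conventional -2.07, SE 0.34, edgeR adjusted p = 0.0343). Its means were 64.7 CPM before farrowing and then 74.4 CPM at L11 for conventional sows, and 275 and 58.8 CPM for enriched sows, so the means lay far apart at G98 and close at L11. PTPRO, a receptor phosphatase, changed from 0.22 to 0.90 in the conventional sows and from -0.65 to 0.22 in the enriched sows (enriched minus conventional -0.90, SE 0.15, edgeR adjusted p = 0.0343), overlapping at the edge.

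BATF2, an interferon-induced factor of the AP-1 family, changed from -0.065 to 0.70 in the conventional sows and from -1.58 to -0.093 in the enriched sows (enriched minus conventional -1.45, SE 0.25, edgeR adjusted p = 0.0343). UBXN11 was the 1 of the 5 named genes with a higher change in enriched sows, from -0.15 to 0.34 in the conventional sows and from 0.47 to 1.07 in the enriched sows (enriched minus conventional 0.59, SE 0.10, edgeR adjusted p = 0.0343). With the covariate the differences of the 5 were -0.56 for CCR4, -0.81 for PTPRO, -1.61 for ATP5IF1, 0.55 for UBXN11 and -1.57 for BATF2, each at an adjusted p of 0.589. Of the 15 monocyte genes 0 were called for housing. Further called genes are named after their values were seen. MITF, a lineage factor of several cell types, changed from 0.47 to 1.43 in the conventional sows and from -1.55 to 0.61 in the enriched sows (enriched minus conventional -1.60, SE 0.28, edgeR adjusted p = 0.0343), and CX3CR1, the fractalkine receptor, changed from 0.35 to 1.30 in the conventional sows and from -1.06 to 0.46 in the enriched sows (enriched minus conventional -1.12, SE 0.24, edgeR adjusted p = 0.0482). MERTK, a receptor for dying cells (-1.77), TCF7L2 (-1.29) and the eosinophil chemokine receptor gene CCR3 (-0.76) had lower changes in enriched sows too. Of the cholesterol list ACACA (-0.59), HMGCS1 (-0.71) and CYP51A1 (-0.48) were called, each with a lower change in enriched sows.

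The housing count depended on single sows. It was 0 in the fits without T82166, T83410, T83859, T91522, T93157 or T93204, it was 2 without T83821, 3 without T91403, 13 without T82133 and 15 without T82157, and it was 316 without T93287. DESeq2 called 312 genes.

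**Figure D5:**
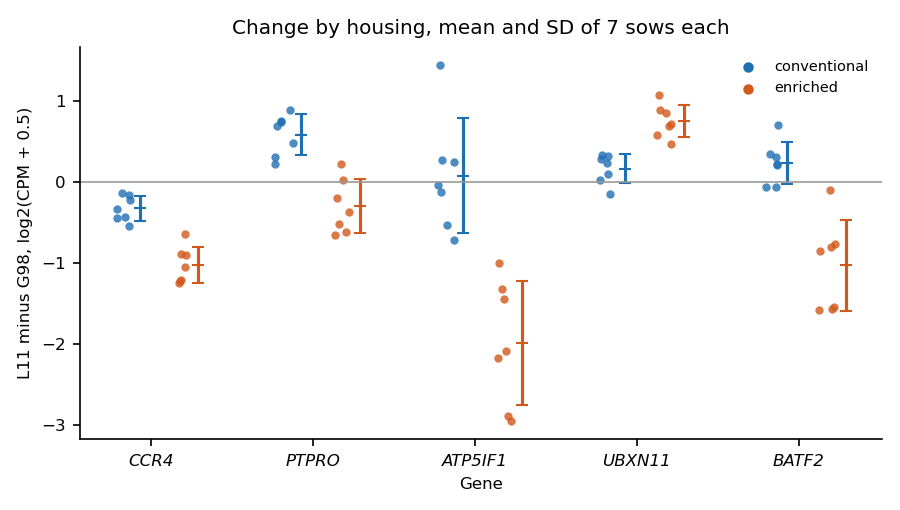
Change from G98 to L11 in log2(CPM + 0.5) of the 5 genes named for housing, with 1 point per sow (7 conventional, 7 enriched) and the mean with SD beside the points. For CCR4, ATP5IF1, UBXN11 and BATF2 the sows of the 2 housing groups do not overlap, and for PTPRO they meet near 0.22. The 5 were picked for the smallest p of this difference, so the separation follows from the choice.

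No gene was called for parity or dominance. For HP against LP sows edgeR's smallest adjusted p was 0.424, with 617 genes at an unadjusted p under 0.05 and 14 genes called by DESeq2. For dominant against subordinate sows it was 0.282, with 1435 genes at an unadjusted p under 0.05 and 22 called by DESeq2, over 6 and 3 sows. Dominance was not balanced over parity, since the 3 subordinate sows were all LP, so that the factors overlap in these sows. The smallest p-values for parity belonged to IL13RA1, A2M and ALOX5AP and for dominance to RBPJ, COL14A1 and FAM111B. ALOX5AP, the helper protein of leukotriene synthesis, rose with stage in all 14 sows (edgeR log2 fold change 0.76, SE 0.093, adjusted p = 7.13e-06), as did RBPJ, the nuclear effector of Notch (edgeR log2 fold change 0.46, SE 0.088, adjusted p = 0.000405).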

How the data were processed

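RNA from peripheral blood mononuclear cells was sequenced from stranded mRNA libraries, per the labels' protocols. The authors deposited, per the file headers, estimated counts and TPM per gene and library, and the counts were used here. DESeq2, R 4.1.2 and the build Sscrofa11.1 stand in the submitters' processing notes, and the quantifier was not stated in the sources used here. Of the values, 4.61% were not whole (tolerance 1e-06), so counts were rounded, and 60.3% of 24358 gene IDs had a symbol. Symbols came from a separate source of names by gene ID. Gene spans came from RefSeq for Sscrofa11.1, looked up by symbol, and CA1 and CA2 had none there.

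Counts were scaled by TMM, filtered with filterByExpr and fitted with a term per sow by edgeR 4.0.16 (R 4.3.3, quasi-likelihood test, Benjamini-Hochberg adjusted p below 0.05). The stages come from the same animals, and the pairing was checked: deviations of libraries of 1 sow correlated at 0.188 to 0.606, against a median of -0.0368 between sows. CPM were taken relative to the scaled library size. R1 and R2 were compared as an interaction over the 26 sows with pairs, and housing, parity and dominance as interactions within R1. DESeq2 1.42.0, limma 3.58.1, other filters and scalings, an erythroid covariate and leaving out each sow were tried. No 2 libraries of a group agreed within sampling noise (lowest chi-square per degree of freedom 19.3).

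Named were the 10 largest rises and falls at a mean log2 CPM of at least 1, up to 3 called members per list with the smallest p, the 8 largest differences each way between replicates, and 5 genes for housing or 3 where none was called. The members and the 32 lists were chosen with earlier results of these data known. Values of other list members are examples, and some members are not reported here.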

Additional observations from a re-analysis of the deposited data

Results flagged for a closer look

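These results were picked out because the change from G98 to L11 differed between 2 groups of sows by a test of the difference itself, an interaction in edgeR for genes or a permutation test for the red cell share. The groups hold 14 sows (R1), 12 sows (R2) or 7 sows (each housing group within R1). Single samples far from their group were not searched for in the groups of 14.

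Between the replicates, with R1 minus R2 in log2 units, the red cell share differed by -2.99, and so did HBB (-3.75), AHSP (-3.43), HBM (-3.22), SNCG (-3.15), DMTN (-2.68), REEP1 (-2.41) and ALAS2 (-2.37). NR4A3 (-2.31), ATP5IF1 (-2.05) and ARG1 (-1.72) also lay far below R2. Among genes of metabolism and protein handling the differences were RPS15A (-0.74), RPL27 (-0.59), RPL36A (-0.39), NDUFB1 (-0.58), CYCS (-0.56), LDHA (-0.59), PSMA7 (-0.40), PSMA4 (-0.39), PSMB2 (-0.27), MANF (-0.66), HSPE1 (-0.64), HSP90B1 (-0.25) and SREBF2 (-0.19). Lower changes in R1 were also found for ANXA1 (-0.69) and SLA-DMA (-0.23).

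Above R2 lay EXPH5 (1.22), CRHBP (1.19), PRRT2 (1.15), ZNF891 (1.10), ZSWIM3 (1.08), SEMA6D (1.01), EPHB4 (1.01), ZNF683 (0.99), ATF3 (0.95), TRIB1 (0.90), DUSP1 (0.87), S1PR5 (0.77), NFIL3 (0.63), CCR6 (0.47), BCL11B (0.38) and PDK1 (0.29). For BCL11B, CCR6 and PDK1 both replicates fell and R1 fell less.

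Between housing groups within R1, the change in enriched minus that in conventional sows was -3.07 for the red cell share, -2.07 for ATP5IF1, -1.45 for BATF2, -0.90 for PTPRO, -0.73 for CCR4 and 0.59 for UBXN11.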

How the results depend on the processing

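The stage count of 5263 stayed within 1.5 times its value under DESeq2 (5471), DESeq2 size factors (5245), no filter (4966), a stricter filter (5119), limma voom (5325) and the erythroid list left out (5253), and without the replicate block, that is the sow terms, it was 4317. Leaving out each sow gave 4888 to 5237. With the erythroid covariate, which itself fell from G98 to L11 in 13 of 14 sows, it was 1690. The difference between replicates was called for 2564 genes, 2217 to 2589 with each sow left out, 2004 without the replicate block and 1342 with the covariate. The covariate reversed HBB (0.071), SNCG (0.24) and ALAS2 (0.029), none of them then called (edgeR adjusted p = 0.826, 0.145 and 0.957). HBB is itself the largest part of the covariate, so its value in that fit is no test of its stage change. The housing count of 65 was 312 with DESeq2, 0 with stage by parity in the fit, 0 with the covariate (56 of 60 differences within 1.5 times) and 0 to 316 with each sow left out. Parity and dominance gave 14 and 22 genes with DESeq2 and 0 with each sow left out. The mean log2 change of the red cell share ran from -4.35 to -3.59 with each sow left out. Apart from HBB under the covariate, why these values move was not tested. The covariate for housing and some further settings, including the 9 sows (3874 genes), were chosen after seeing the data. Among lists with few called members, leaving out single sows gave 0 or 1 hormone receptor rises in 9 of 14 fits and 1 B cell rise in 6. Depth limits genes near 1 CPM, such as CA1 at L11.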
